A study of Mus musculus with 44 samples.

Results

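Suprabasin (Sbsn), dermokine (Dmkn) and keratinocyte differentiation-associated protein (Krtdap) are 3 neighbouring genes that are best known from the epidermis, and they were followed here in fibroblasts of the mouse mammary gland and of mammary tumors. They were chosen by name, because they had stood out in CD26+ fibroblasts of these same data, as 3 of the 55486 genes with counts. The high level in CD26+ against CD26- fibroblasts is therefore what selected them and is described below without a test. Krt5 and Krt14, the keratins of basal and myoepithelial cells, were followed beside them as a measure of RNA from such cells.

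The skin's outer layers are renewed from basal keratinocytes, which make keratins 5 and 14, divide and then move upward. As they leave the basal layer they switch to other keratins and to proteins of the cornified envelope. Sbsn, Dmkn and Krtdap lie side by side in a cluster of genes for secreted proteins of stratified epithelium, and each is known from cells above the basal layer. CD26, the product of Dpp4, is a membrane peptidase that marks fibroblasts of the outer, adventitial layer of connective tissue, among them cells regarded as progenitors.

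The fibroblasts came from female En1-Cre;mTmG mice, in which Cre driven from En1 switches a membrane tdTomato reporter to GFP and so marks every descendant of En1-expressing cells, whether or not they still express it. These mice had received mammary tissue on the fourth mammary gland, which kept its own epithelium and stroma. Control mice had received donor tissue without WapCre and gave normal fibroblasts (NFs). WB1P mice carried WapCre;Brca1F/F;Trp53F/F tumors, and WB1P-Myc mice carried tumors that also had Col1a1 invCAG-Myc-IRES-Luc, and both gave cancer-associated fibroblasts (CAFs). WapCre acts in mammary epithelium, so that the sorted fibroblasts of all 3 groups share the recipient genotype where they come from the recipient. Cells negative for EpCAM, CD49f, CD31 and CD45 were sorted by CD26 and GFP into En1+ (CD26-, GFP+), double- (neither), CD26+ (GFP-) and double+ (both) populations. There were 44 libraries of 13 mice, with 3 control, 5 WB1P and 5 WB1P-Myc mice, and the labels mark WB1P-Myc mice 23 and 69 as 8x8, and in the study 8 × 8 mm is the size of an advanced tumor. Ages were not given in the labels. Each control label names a pair of numbers and was counted as 1 mouse, and the paired numbers may stand for pooled animals.

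Libraries held 5790599 to 15240328 counts with a median of 12818093, and levels are given as CPM (counts per 1 M counts of a library). Sums per mouse and CD26 class comprised 3 mice in each NF class, 9 mice for CD26+ CAFs and 10 mice for CD26- CAFs. Every NF sum joined both populations of its class, but some CAF sums did not. The CD26+ sums of WB1P mouse 12 and WB1P-Myc mice 67 and 95 held double+ alone. The CD26- sum of WB1P mouse 10 held En1+ alone, and those of WB1P-Myc mice 21 and 95 held double- alone. Dpp4 followed the sort, at 546 ± 295 CPM (n = 3 mice, SD) in the CD26+ class and 5.28 ± 3.05 CPM in the CD26- class of NFs, and at 384 ± 101 CPM (n = 9) and 6.78 ± 4.88 CPM (n = 10) in the CAFs. The 9 fibroblast genes of a marker list, collagens among them, summed to 36318 to 89038 CPM in every library. Some late markers of cornifying epidermis were almost absent, since Flg and Flg2 had 0 counts in all 44 libraries and the highest counts of Lor, Ivl and Krt2 in any library were 4, 2 and 4. Other genes of epidermal differentiation were detected in all 44 libraries, among them Krt10 (up to 65 counts), Tgm1 (up to 168), Sprr1a (up to 111), Ppl (up to 1413) and Krt80 (up to 1069).

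The members occupy one strand of chromosome 7 in GRCm38. Sbsn lies at chr7:30751471-30756134, Dmkn at chr7:30763756-30781063 and Krtdap at chr7:30787896-30791097, all on the + strand, with 7621 bases between the first pair and 6832 bases between the second. The annotated lncRNA Tmem147os overlaps Sbsn on the same strand and had 0 counts in every library. The windows upstream of the RefSeq starts are shown because the members share the CD26+ pattern and lie side by side, so that the letters before their starts can be compared. They run 5′ to 3′ on GRCm38.p6, and capitals mark the AP-1 motif (TGACTCA or TGAGTCA, which are each other's reverse complement).
Sbsn, chr7:30751221-30751471: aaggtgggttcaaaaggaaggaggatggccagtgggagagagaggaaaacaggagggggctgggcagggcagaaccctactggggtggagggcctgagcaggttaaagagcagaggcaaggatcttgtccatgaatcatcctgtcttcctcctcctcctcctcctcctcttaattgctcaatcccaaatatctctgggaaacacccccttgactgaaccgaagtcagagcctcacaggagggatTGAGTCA
Dmkn, chr7:30763506-30763755: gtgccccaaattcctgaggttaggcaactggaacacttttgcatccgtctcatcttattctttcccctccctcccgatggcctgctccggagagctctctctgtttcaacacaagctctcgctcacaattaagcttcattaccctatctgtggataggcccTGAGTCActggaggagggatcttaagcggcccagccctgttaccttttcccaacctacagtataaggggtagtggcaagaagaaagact
Krtdap, chr7:30787655-30787895: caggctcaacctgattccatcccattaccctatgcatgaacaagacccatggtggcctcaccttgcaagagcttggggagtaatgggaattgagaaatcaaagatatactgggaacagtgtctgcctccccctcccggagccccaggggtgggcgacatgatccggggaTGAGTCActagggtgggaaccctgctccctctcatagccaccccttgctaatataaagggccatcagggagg
Each window held the letters TGAGTCA once, on the strand of the gene. In Sbsn they began 6 bases before the RefSeq start and ran onto its first base, in Dmkn they began 89 bases and in Krtdap 81 bases before it. Dmkn has 2 more RefSeq windows, 1 shifted by 2 bases and 1 at an internal start, and both held TGAGTCA as well. Among 32817 RefSeq promoter windows of mouse genes, from 250 bases before to 50 after a start, 5.2% held the AP-1 motif on either strand. TATAAA was found only in the window of Krtdap, 30 bases before the start, and in 13.6% of all windows. CCAAT was found only in the window of Krtdap, after its start, and in 37.4% of all windows. GGGCGG was found in none of the members' windows and in 35.6% of all. These matches describe letters in a window and are not evidence of a bound factor.

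Sbsn was the member with the most reads. In CD26+ NFs it measured 23.0, 44.0 and 61.5 CPM in mice 82/83, 44/46 and 49/52, and in CD26- NFs of the same mice 1.46, 1.68 and 2.37 CPM. In CD26+ CAFs it ran from 51.0 to 133 CPM with a median of 114 CPM (9 mice), and in CD26- CAFs from 2.89 to 7.21 CPM with a median of 6.16 CPM (10 mice). The CD26+ value was above the CD26- value in all 12 mice that had both classes, and no CD26- sum reached the lowest CD26+ sum. The ratio within a mouse was 7.79 to 39.3 in CAFs (median 19.9, 9 mice) and 15.7 to 26.2 in NFs (3 mice). On the fitted log2 scale the difference was 4.36 (SE 0.22) in CAFs and 4.59 (SE 0.41) in NFs, values that belong to the contrast the gene was selected on.

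Dmkn separated the classes further. CD26+ NFs measured 9.90, 14.0 and 31.0 CPM in mice 82/83, 44/46 and 49/52, against 0.150, 0.256 and 0.198 CPM in their CD26- NFs, which rest on only 4 to 7 counts. CD26+ CAFs ran from 33.6 to 139 CPM with a median of 95.9 CPM (9 mice). CD26- CAFs ran from 0.241 to 3.19 CPM with a median of 1.62 CPM (10 mice). Within a mouse the CD26+ value was 19.1 to 452 times the CD26- value in CAFs (median 55.7) and 54.8 to 157 times in NFs. The highest of these ratios, in WB1P-Myc mouse 67, was measured against 7 counts. The fitted log2 difference was 5.96 (SE 0.36) in CAFs and 6.52 (SE 0.74) in NFs, again in the contrast that selected the gene.

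Krtdap was the scarcest member. CD26+ NFs held 3.53, 7.49 and 12.3 CPM in mice 82/83, 44/46 and 49/52, whereas their CD26- NFs held 1 count in all. CD26+ CAFs ran from 2.06 to 16.5 CPM with a median of 5.65 CPM. CD26- CAFs held between 0 and 8 counts per mouse, at most 0.643 CPM, so that a ratio within a mouse is not given. The fitted log2 difference between the classes was 5.68 (SE 0.50) in CAFs, and the values of the classes did not overlap in CAFs or in NFs. Both belong to the contrast that selected the gene. In these bulk libraries fewer cells that express a gene and less RNA per cell cannot be told apart.

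Levels were compared between members per kb of merged exon. In CD26+ CAFs, Dmkn reached 42.9 ± 14.6 CPM per kb, Sbsn 28.8 ± 7.36 and Krtdap 10.4 ± 6.68 (SD, n = 9 mice). In CD26+ NFs the levels were 11.8 ± 5.33 CPM per kb for Sbsn, 11.5 ± 6.50 for Krtdap and 8.35 ± 5.10 for Dmkn (SD, n = 3). These SDs are between mice, whereas the members were measured in the same mice. Differences between members within a mouse were not tested. The length used was the union of all annotated exons, so that shorter isoforms would raise these levels.

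**Figure D1:**
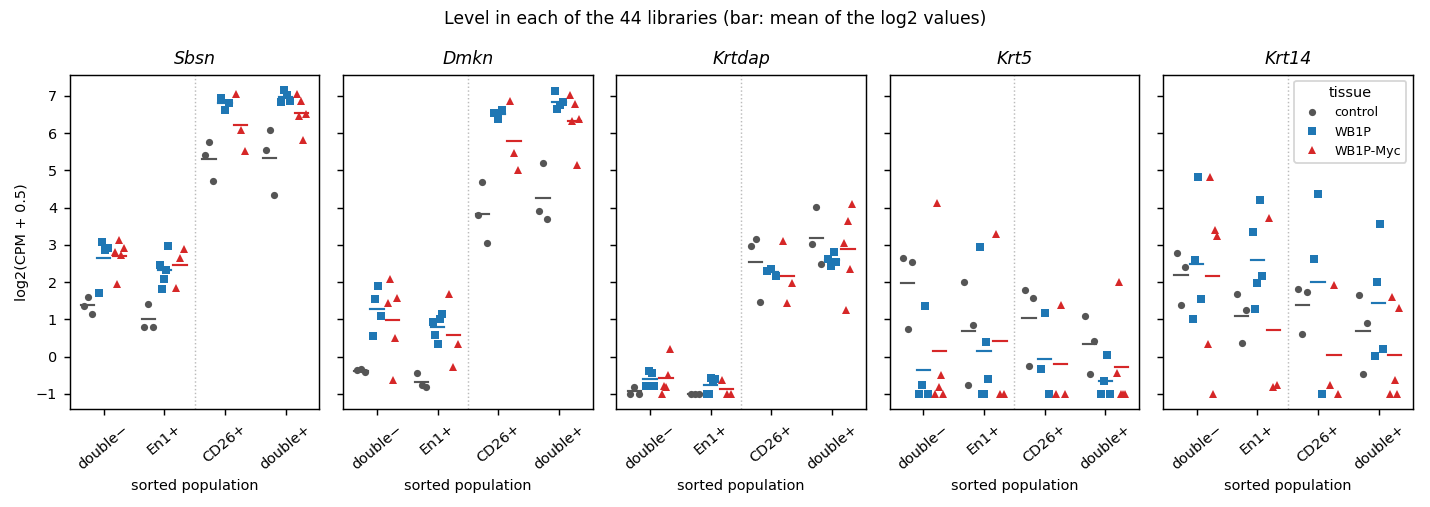
Each point is 1 of 44 libraries, placed by sorted population and by tissue, on a scale of log2(CPM + 0.5), and each bar is the mean of the log2 values of a group. The CD26+ and double+ libraries of Sbsn, Dmkn and Krtdap lie above all double- and En1+ libraries, while the keratins Krt5 and Krt14 scatter in every population.

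Because the members were chosen for this contrast, the amount left in the CD26- class was set beside that of Dpp4, which the sort itself removed. The CD26- level of Dpp4 was 0.737% to 4.47% of its CD26+ level in the same CAF mouse (median 1.70%, 9 mice) and 0.701% to 1.23% in NFs (3 mice). For Sbsn it was 2.54% to 12.8% in CAFs (median 5.02%) and 3.82% to 6.37% in NFs, and it was above that of Dpp4 in 12 of 12 mice. For Dmkn it was 0.221% to 5.23% in CAFs (median 1.80%) and 0.637% to 1.82% in NFs, and it was above that of Dpp4 in 7 of 12 mice. For Krtdap it was 0% to 5.54% in CAFs (median 2.61%) and 0% to 0.32% in NFs, from 0 to 8 counts per mouse in the CD26- class. Sbsn thus kept a larger remainder in CD26- fibroblasts than the sorted marker did, and Dmkn had no fixed order against it. Krtdap held 0 to 1 counts per mouse in CD26- NFs, too few to place it against Dpp4. These percentages come from the contrast that selected the members and are a description.

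**Figure D2:**
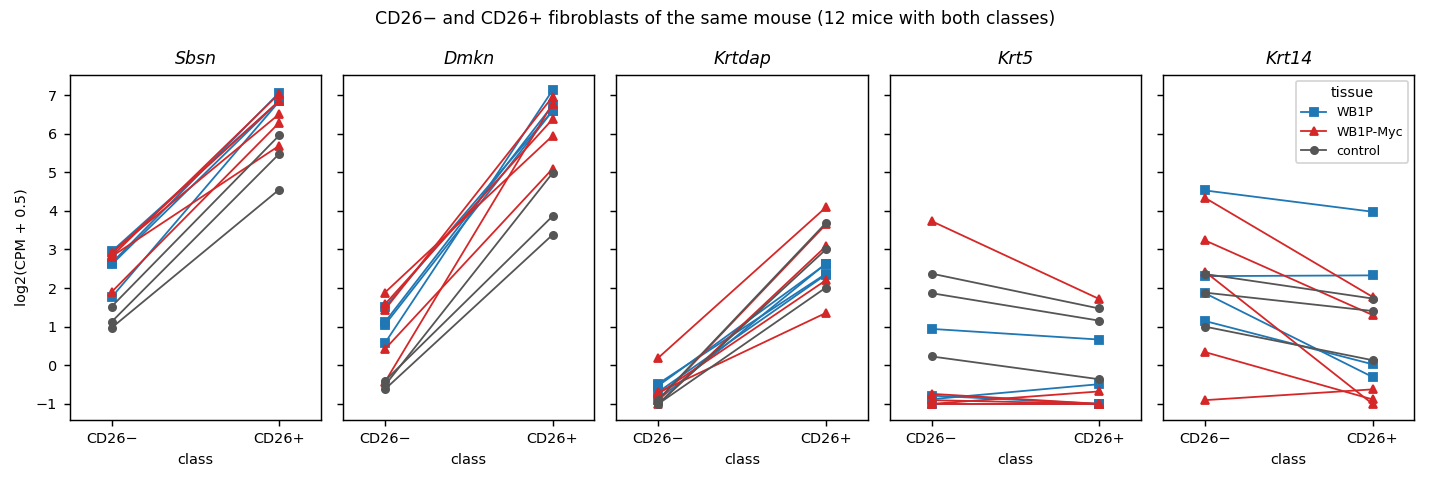
Lines join the CD26- and CD26+ sums of the same mouse for 12 mice on a scale of log2(CPM + 0.5), coloured by tissue. All lines of Sbsn, Dmkn and Krtdap run upward from CD26- to CD26+, and those of Krt14 and Krt5 mostly run level or downward.

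Krt5 and Krt14 did not share this pattern. Krt5 measured 0.278, 1.73 and 2.27 CPM in CD26+ NFs of mice 49/52, 82/83 and 44/46, and 0.671, 3.15 and 4.68 CPM in their CD26- NFs, so it was lower in the CD26+ class of each mouse. In CD26+ CAFs it had 0 counts in 5 of 9 mice and at most 2.79 CPM (mouse 23), and in CD26- CAFs it ran from 0 to 12.8 CPM with a median of 0.0617 CPM. Krt14 measured 0.595 to 2.81 CPM in CD26+ NFs and 1.5 to 4.65 CPM in CD26- NFs, and its medians in CAFs were 0.518 CPM in the CD26+ and 4.66 CPM in the CD26- class, with ranges from 0 to 15.2 and from 0.0344 to 22.6 CPM. In CAFs, Krt14 and Krt5 were each higher in the CD26+ class of 2 of 9 mice. The fitted log2 difference of CD26+ from CD26- CAFs was -1.57 for Krt14 (SE 0.83, FDR 0.142) and -2.0 for Krt5 (SE 1.22, FDR 0.202), with edgeR's quasi-likelihood test and Benjamini-Hochberg adjustment over 16601 genes. Since the libraries of one mouse form pairs, the fit with mouse as a block is given beside it, and there Krt14 was lower in CD26+ CAFs (log2 difference -1.88, FDR 0.00209), whereas Krt5 did not pass (-0.85, FDR 0.151). In NFs neither keratin passed (Krt14 -0.67, FDR 0.943, and Krt5 -0.91, FDR 0.942).

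The members were high in libraries with hardly any reads of Krt5 and Krt14. By the keratin switch described above, these keratins cannot stand for cells above the basal layer, from which the members are known. Other keratins were not used to pick these libraries, and Krt8 and Krt18 averaged 12.5 and 12.0 CPM over all CD26+ CAF libraries. Of 21 CD26+ libraries, 6 had 0 counts of Krt5 and at most 3 counts of Krt14, all of them from CAFs. In these 6 libraries Sbsn ran from 45 to 131 CPM (median 113), Dmkn from 31.8 to 139 CPM (median 104) and Krtdap from 3.40 to 12.0 CPM (median 5.16). The CD26+ library of WB1P mouse 93 is one of them, with 1525 counts of Sbsn, 1339 of Dmkn and 54 of Krtdap beside 0 counts of either keratin. The CD26- libraries with the most Krt14 stayed below every CD26+ library in all 3 members, but 2 of them had the highest Dmkn of their class. The double- library of WB1P-Myc mouse 23 held 343 counts of Krt14 and 209 of Krt5 beside 42 of Sbsn, 46 of Dmkn and 1 of Krtdap. Its Dmkn was 3.71 CPM and that of the double- library of WB1P mouse 35 was 3.24 CPM, the highest levels among the CD26- libraries, whereas their Sbsn of 3.38 and 6.79 CPM was not.

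Across mice, no relation between a member and a keratin passed the adjustment. With Krt5 and Krt14 such relations cannot address RNA of cells above the basal layer. Pearson's r of log2(CPM + 0.5) over the 9 CD26+ CAF mice was 0.21 for Sbsn with Krt14 (exact permutation test, 2-sided, p = 0.629) and 0.05 for Dmkn with Krt14 (exact permutation p = 0.967). With Krt5 it was -0.11 for Sbsn (exact permutation p = 0.652) and -0.21 for Dmkn (exact permutation p = 0.494). Spearman's rho for these 4 relations was 0.28 (exact permutation p = 0.463), -0.17 (p = 0.678), 0.31 (p = 0.422) and -0.26 (p = 0.507), in the order given. Without the 2 mice farthest from the keratin's median, r became -0.12, -0.08, 0.50 and 0.21. Adjusted values over the 10 relations computed were 0.726, 0.967, 0.726 and 0.726 for r, and 0.725, 0.753, 0.725 and 0.725 for rho.

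Over the 10 CD26- CAF mice, Dmkn and Krt14 had r = 0.71 (permutation test, p = 0.0288, adjusted 0.144) and rho = 0.58 (permutation p = 0.0882, adjusted 0.603), and without the 2 farthest mice r was 0.38. Sbsn with Krt14 had r = -0.27 (permutation p = 0.454) and rho = -0.38 (permutation p = 0.278). With Krt5, r was -0.50 for Sbsn (permutation p = 0.135) and 0.41 for Dmkn (permutation p = 0.204), and rho was -0.37 (permutation p = 0.282) and 0.18 (permutation p = 0.629). Their adjusted values were 0.45 to 0.726 for r and 0.705 to 0.753 for rho, and without the 2 farthest mice r was -0.20 for Sbsn with Krt14, -0.01 for Sbsn with Krt5 and 0.31 for Dmkn with Krt5.

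Sbsn and Dmkn moved together over the 9 CD26+ CAF mice with r = 0.93 (exact permutation p = 0.00411, adjusted 0.0411) but rho = 0.57 (exact permutation p = 0.121, adjusted 0.603). Without the 2 mice farthest from the median of Sbsn, r fell to 0.47, so that the relation rests on those mice. These are the mice marked 8x8, and leaving those out gave the same r of 0.47. Over the 10 CD26- CAF mice r was -0.18 (permutation p = 0.653, adjusted 0.726) and rho -0.01 (permutation p = 1, adjusted 1), and r without the 2 farthest mice was -0.17. With 3 NF mice in each class no such relation was computed.

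**Figure D3:**
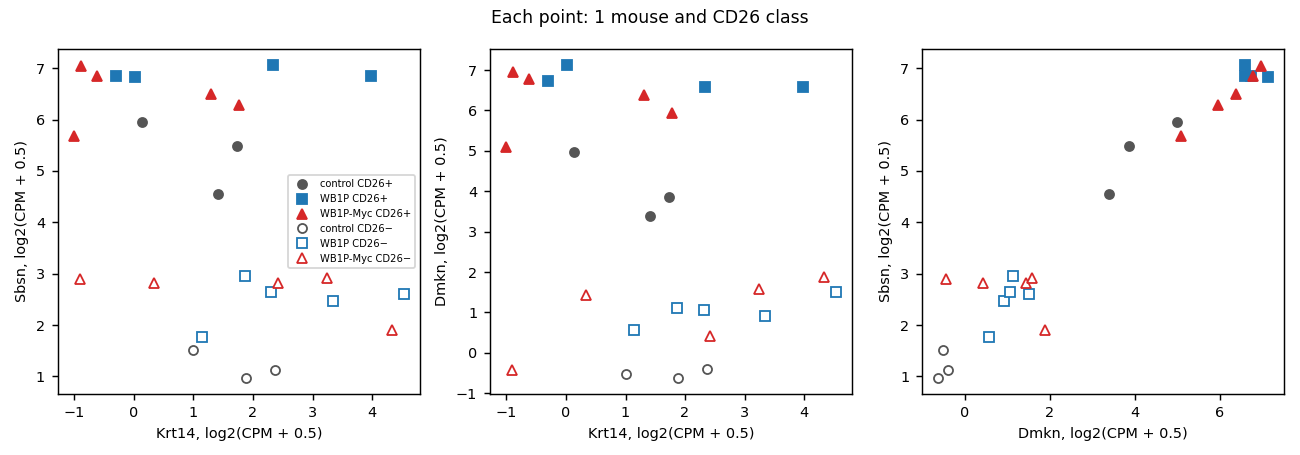
Each point is 1 mouse and CD26 class, filled for CD26+ and open for CD26-, and both axes are log2(CPM + 0.5). Sbsn and Dmkn form separate bands by CD26 class at any level of Krt14, and the panel of Sbsn against Dmkn shows the CD26+ NFs and WB1P-Myc mouse 69 at the lower end of the CD26+ class.

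The question next asked was whether the members differ between tumors and control glands within a CD26 class. The members were chosen for the CD26 contrast, in which 15 of the 21 CD26+ libraries were from CAFs. The choice is therefore not independent of the CD26+ CAF values tested here. Sbsn and Dmkn rose in CAFs of both classes and Krtdap passed in neither. In the CD26+ class, Sbsn averaged 104 ± 26.7 CPM in CAFs (SD, n = 9) and 42.8 ± 19.3 CPM in NFs (n = 3), and all but 1 of the 9 CAF mice (WB1P-Myc mouse 69, 51.0 CPM) lay above the highest NF mouse. The fitted rise was 2.73-fold (log2 1.45, SE 0.30, FDR 0.000845 with edgeR). Dmkn averaged 94.0 ± 31.9 CPM against 18.3 ± 11.2 CPM, and no CAF mouse overlapped with the NFs. The rise was 5.74-fold (log2 2.52, SE 0.49, FDR 0.000445), and log2 3.12 without control mouse 49/52, which had the highest NF level. Krtdap averaged 7.03 ± 4.54 CPM in CAFs and 7.79 ± 4.41 CPM in NFs. Its log2 fold change was -0.09 (SE 0.53, FDR 0.908, 95% interval -1.14 to 0.95), and 8 of 9 CAF mice lay within or below the range of the NFs. In this comparison 20.1% of 16601 tested genes were called higher in CAFs and 21.1% lower, which is the background for 2 of 3 members called higher. How many of all genes had no overlap between CAF and NF mice was not counted.

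In the CD26- class, Sbsn averaged 5.69 ± 1.55 CPM in CAFs (n = 10) and 1.84 ± 0.47 CPM in NFs (n = 3), and the groups did not overlap. Its log2 fold change was 1.68 (SE 0.33, FDR 0.000386), a 3.21-fold rise. Dmkn averaged 1.69 ± 0.88 CPM in CAFs and 0.201 ± 0.053 CPM in NFs, and 9 of 10 CAF mice lay above all NFs. The exception was WB1P-Myc mouse 67 with 7 counts. Its log2 fold change was 3.08 (SE 0.69, FDR 0.00125), an 8.45-fold rise from a level of 4 to 7 counts per mouse. Krtdap rose from 1 count in 3 NF mice to 28 counts in 10 CAF mice and did not pass (FDR 0.0621), and its fitted fold depends on the handling of zeros. The low-count filter kept Krtdap only through the CD26+ class, where its counts were higher, so that this test is no support for a change. The same limit holds for its FDR of 0.0279 with DESeq2's Wald test and of 0.0449 without the 2 mice marked 8x8. In this comparison 20.4% of genes were called higher and 21% lower in CAFs, and genes without overlap were again not counted.

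Dpp4 itself did not pass in either comparison, with a log2 fold change of -0.34 (SE 0.52, FDR 0.62) in the CD26+ and 0.36 (SE 0.56, FDR 0.626) in the CD26- class. The keratins did not pass either, with 0.43 (SE 1.22, FDR 0.8) for Krt14 and -1.44 (SE 1.58, FDR 0.487) for Krt5 in the CD26+ class, and 1.34 (SE 1.23, FDR 0.398) and -0.34 (SE 1.52, FDR 0.875) in the CD26- class. Some other basal and stratified epithelial genes passed. Over all genes, 20.1% were called higher and 21.1% lower in CAFs of the CD26+ class. In the CD26- class it was 20.4% and 21%, and the counts from marker lists below are to be read beside these shares. Of 18 basal and myoepithelial genes, 2 were higher in CAFs of the CD26+ class, the keratin Krt16 (FDR 0.0452) and the desmosomal cadherin Dsg3 (FDR 0.0325), and 1 was lower, Krt15 (FDR 0.0243). In the CD26- class 4 were higher, Krt16 (FDR 0.0245), Dsg3 (FDR 0.0161), Itga6 (FDR 0.0261) and Lamb3 (FDR 0.0285), and 2 were lower, Dsc3 and Oxtr. Krt16 averaged 1.64 CPM in CD26+ and 2.95 CPM in CD26- CAF libraries, and Dsg3 0.949 and 1.73 CPM, against at most 0.0546 CPM in either class of NFs. The part of epithelial RNA in the rise of Sbsn and Dmkn was not tested. Other cell types moved with the tumors in the CD26- class. All 8 pericyte markers were higher in CD26- CAFs, with summed levels of 1308 to 10794 CPM in 17 libraries against 208 to 442 CPM in 6 NF libraries. Of 12 immune markers 7 were higher and 1 lower in CD26- CAFs, with sums of 17.3 to 140 CPM against 21.2 to 34.5 CPM. In the CD26+ class the pericyte sums were 127 to 327 CPM in CAFs and 157 to 201 CPM in NFs, the immune sums were 23.4 to 322 CPM and 21.5 to 32.6 CPM, and 2 of 12 immune markers were higher and 1 lower. Cd3e held the largest part of the immune sum in CD26+ CAF libraries, with a mean of 68.9 CPM. The next was Csf1r at 9.30 CPM, and Ptprc, which encodes CD45, averaged 1.37 CPM. Of 10 endothelial markers, 7 were lower and 0 higher in CD26+ CAFs than in NFs, and in CD26- CAFs 5 were lower and 2 higher, Emcn and Esam. These markers were also compared between the CD26 classes of CAFs, without mouse as a block. In that fit 8 of 8 pericyte, 8 of 12 immune and 8 of 10 endothelial markers were lower in CD26+, as were 19.9% of all genes. The T cell gene Cd3e (68.9 CPM in CD26+ and 8.63 CPM in CD26- CAF libraries) and the endothelial receptor Kdr (19.5 and 4.50 CPM) were higher there. The part of these cell types in the values of the members was not tested. Whether the rise in CAFs differed between the CD26 classes was not tested.

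**Figure D4:**
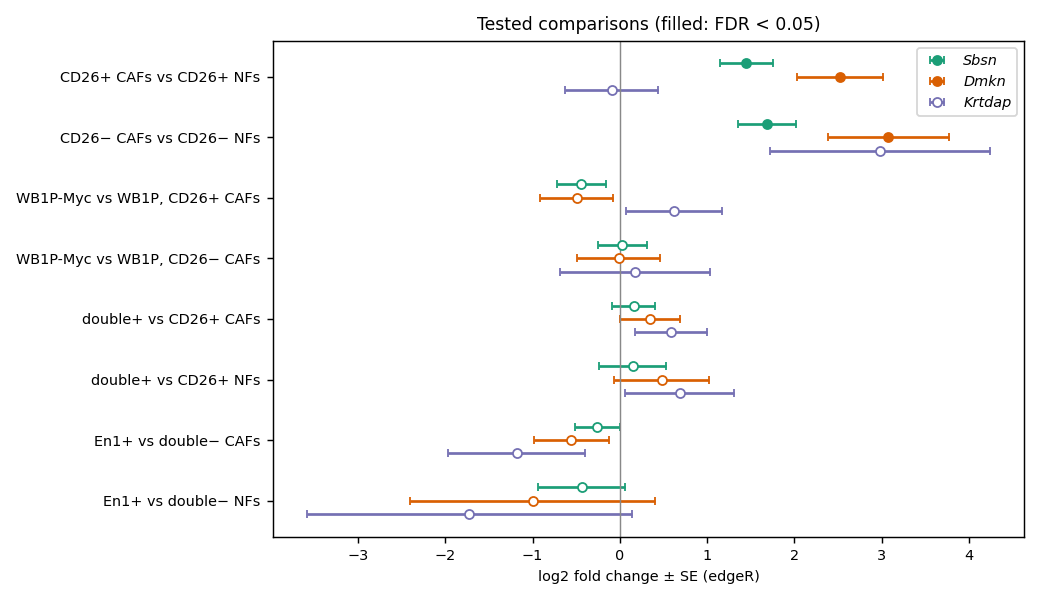
Points are log2 fold changes from the edgeR fits with their standard errors, for each member in the comparisons that were tested, and filled points have an FDR under 0.05. Only Sbsn and Dmkn in CAFs against NFs are filled, at 1.45 and 2.52 in the CD26+ class and at 1.68 and 3.08 in the CD26- class.

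No member passed the test between the tumor genotypes. In CD26+ CAFs, Sbsn averaged 119 ± 9.43 CPM in WB1P (n = 4) and 92.9 ± 31.3 CPM in WB1P-Myc mice (n = 5), with a log2 difference of WB1P-Myc from WB1P of -0.44 (SE 0.28, FDR 1). Dmkn averaged 109 ± 20.5 and 81.9 ± 36.1 CPM, with a log2 difference of -0.50 (SE 0.42, FDR 1, 95% interval -1.31 to 0.32). Krtdap averaged 5.15 ± 0.61 and 8.53 ± 5.87 CPM, with a log2 difference of 0.62 (SE 0.55, FDR 1). Its highest levels, 12.0 and 16.5 CPM, were those of WB1P-Myc mice 67 and 95, whose sums held double+ alone. The 5 WB1P-Myc mice spread more widely in all 3 members, and the lowest levels of Sbsn and Dmkn were those of mice 69 and 23, which the labels mark 8x8. No gene at all was called in this comparison (0% of 16601) by edgeR, 646 had an unadjusted p under 0.05, and DESeq2 called 9. In CD26- CAFs, where 0.512% of genes were called, the log2 differences were 0.03 for Sbsn (SE 0.28, FDR 0.978), -0.01 for Dmkn (SE 0.48, FDR 0.994) and 0.18 for Krtdap (SE 0.86, FDR 0.943). Krtdap entered this test only through its counts in the CD26+ class.

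No member passed the test between fibroblasts with and without En1 lineage. In CAFs, double+ libraries averaged 125 ± 13.2 CPM of Sbsn in WB1P (n = 4) and 95.9 ± 28.6 CPM in WB1P-Myc mice (n = 5), against 111 ± 12.5 and 81.2 ± 44.5 CPM in CD26+ libraries without GFP (n = 3 each). Dmkn averaged 115 ± 17.3 and 87.3 ± 35.8 CPM in double+, and 90.9 ± 8.19 and 63.8 ± 45.4 CPM in CD26+ libraries. Krtdap averaged 5.61 ± 0.69 and 8.58 ± 5.83 CPM in double+, and 4.30 ± 0.31 and 4.58 ± 3.13 CPM in CD26+ libraries. The log2 differences of double+ from CD26+ CAFs were 0.16 for Sbsn (SE 0.25, 95% interval -0.33 to 0.65), 0.34 for Dmkn (SE 0.35, -0.33 to 1.02) and 0.59 for Krtdap (SE 0.41, -0.22 to 1.40), each with an edgeR FDR of 1. Within mice, Dmkn was higher in double+ than in CD26+ in 6 of 6 CAF mice and 3 of 3 control mice, Sbsn in 5 of 6 and 2 of 3, and Krtdap in 4 of 6 and 3 of 3. With mouse as a block the FDRs in CAFs were 0.757 to 0.818. In NFs the differences were 0.15 (SE 0.39), 0.48 (SE 0.55) and 0.69 (SE 0.62) for Sbsn, Dmkn and Krtdap, with an FDR of 1 each. Only 3 of 15584 genes (0.0193%) were called between double+ and CD26+ CAFs, and 1 gene (0.00642%), or 3 with the block, between the same populations of NFs.

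Among CD26- libraries, En1+ averaged 4.72 ± 1.64 CPM of Sbsn in WB1P (n = 5) and 5.26 ± 1.97 CPM in WB1P-Myc mice (n = 3), and double- averaged 6.16 ± 2.31 (n = 4) and 6.27 ± 1.79 CPM (n = 5). The log2 difference of En1+ from double- CAFs was -0.26 for Sbsn (SE 0.26), -0.55 for Dmkn (SE 0.43) and -1.18 for Krtdap (SE 0.78), each with an FDR of 1. In NFs it was -0.44 for Sbsn (SE 0.50) and -1.0 for Dmkn (SE 1.40, on 1 to 4 counts per library), each with an FDR of 1, and Krtdap held at most 1 count in any of these 6 libraries. Krtdap was kept for these tests only through its counts in CD26+ and double+ libraries. By edgeR no gene (0% of 15584) was called between En1+ and double- CAFs, where 641 had an unadjusted p under 0.05 DESeq2 called 8 and the fit with mouse as a block 11, and 1 gene (0.00642%) was called between those populations of NFs, or 25 with the block.

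The 10 protein-coding genes on either side of the members did not share their pattern. Tmem147, which encodes a membrane protein of the endoplasmic reticulum, averaged 22.2 to 27.0 CPM in the 4 classes. It was slightly higher in CD26+ than in CD26- CAFs (log2 0.34, SE 0.08, FDR 0.00299) and, within the CD26+ class, in CAFs than in NFs (0.46, SE 0.13, FDR 0.00588), and passed neither in CD26- CAFs against NFs (0.16, FDR 0.308) nor in CD26+ against CD26- NFs (0.03, FDR 0.981). The other 9 genes (Pmis2, 2200002J24Rik, Atp4a, Gapdhs, Ffar2, Ffar3, Ffar1, Cd22 and Mag) averaged at most 0.202 CPM in any class and were too scarce to be tested. Thus the high level in CD26+ fibroblasts began at Sbsn and ended at Krtdap along the chromosome, as far as these genes can show.

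**Figure D5:**
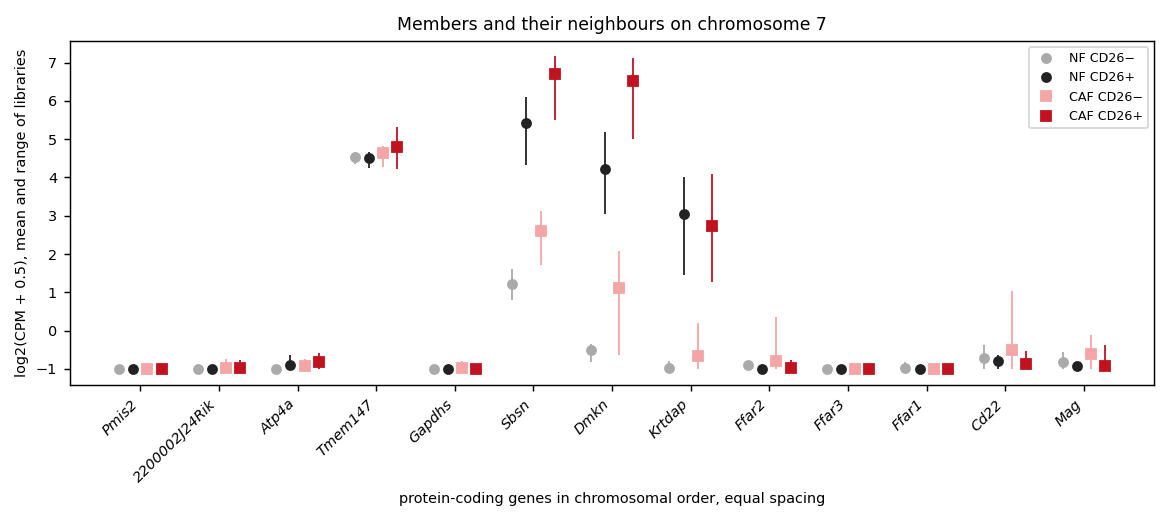
Protein-coding genes in chromosomal order with equal spacing, shown as log2(CPM + 0.5) of the mean over libraries (points) and of the lowest and highest library (lines) in 4 classes. Sbsn, Dmkn and Krtdap stand above their neighbours in CD26+ fibroblasts, and Tmem147 lies between 22.2 and 27.0 CPM on average in every class.

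Other genes of epidermal differentiation changed in both directions. A list of 69 genes of epidermal differentiation, without the 3 members, left 21 genes with enough reads to test. Of these, 5 were higher and 6 lower in CD26+ than in CD26- CAFs, where 19.1% and 19.9% of all genes were, and the list's median log2 difference was -0.30 against 0.01 over all genes. In NFs 1 was higher and 0 were lower with edgeR, where 2.67% and 1.49% of all genes were called. With mouse as a block 2 were higher and 2 lower in NFs, where 948 and 968 of 16601 genes were called. The 5 that rose in CD26+ CAFs were Serpinb2, a protease inhibitor (log2 3.65, SE 0.61, FDR 5e-05), the keratin Krt80 (2.34, SE 0.26), the cytolinker Ppl (1.75, SE 0.49), the corneodesmosome gene Cdsn (1.54, SE 0.55) and the suprabasal keratin Krt10 (1.04, SE 0.18). Their levels differed widely, since Serpinb2 averaged 297 CPM in CD26+ and 25.8 CPM in CD26- CAF libraries, Krt80 17.7 and 4.10 CPM, and Krt10 3.17 and 1.72 CPM. Krt80 was the gene called in NFs, with 38.8 CPM in CD26+ and 0.908 CPM in CD26- libraries (log2 5.45, SE 0.55, FDR 2.07e-06). The 6 that were lower were Klk8, Krt78, Cers3, Asprv1, Tchh and Elovl4, of which the protease Klk8 changed most (-5.90, SE 0.61, FDR 1.08e-07).

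In CAFs against NFs, 4 of the 21 were higher and 5 lower in the CD26+ class, and 9 higher and 7 lower in the CD26- class. Serpinb2, Tgm1, which cross-links the cornified envelope, and the envelope genes Sprr1a and Sprr1b were higher in CAFs of both classes, as Sbsn and Dmkn were. Tchh, Elovl4, Evpl and Ly6g6c were lower in both. Krt80 was lower in CAFs than in NFs of the CD26+ class (-0.93, SE 0.35, FDR 0.0355) and higher in those of the CD26- class (2.18, SE 0.45, FDR 0.000572). The counts for the CD26+ class were 2 and 2 without control mouse 49/52, 2 higher without control mouse 44/46, and 3 lower without control mouse 82/83. In the CD26- class 3 were lower without control mouse 49/52.

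In the fit without mouse as a block, few markers of mammary epithelium passed the test between the CD26 classes. The list counts that follow are from that fit. With the block, 3981 genes were called higher and 4227 lower in CD26+ CAFs, and Krt14 was among the lower (edgeR FDR 0.00209). Counts from the lists of mammary epithelium are not given with the block. Over all genes, 19.1% were called higher and 19.9% lower in CD26+ CAFs. Of 18 basal and myoepithelial genes, Krt5 and Krt14 among them, those higher in CD26+ CAFs included Oxtr and Dst, and 1 was lower (Itga6, which encodes CD49f). Dst is abundant in every class here, at 450 CPM in CD26+ CAF libraries. Of 29 luminal genes tested, 2 were higher in CD26+ CAFs, the hormone receptors Esr1 and Pgr, and 0 were lower. Summed levels of the luminal list ran from 78.4 to 622 CPM in CD26+ and from 71.5 to 610 CPM in CD26- CAF libraries. These sums include Esr1 and Pgr, which averaged 62.9 and 15.0 CPM in CD26+ CAF libraries. Epcam, Krt8 and Krt18 averaged 10.2, 12.5 and 12.0 CPM in CD26+ and 16.2, 20.8 and 19.0 CPM in CD26- CAF libraries. Reads of these 3 genes were therefore present in both classes, and the cells they came from were not tested. All 13 genes of the adventitial and progenitor fibroblast list were higher in CD26+ CAFs, where 19.1% of all genes were. In CD26+ NFs 9 of 13 were higher, where 2.67% of all genes were. The list includes Dpp4, the gene of the sort, and was chosen with earlier results of these data known, so that these counts are a description. Another gene of the list, Pi16, averaged 1817 CPM in CD26+ and 182 CPM in CD26- CAF libraries.

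Over the 44 libraries, likeness to the members was measured as Pearson's r of log2(CPM + 0.5) across 15584 genes. These values share the CD26 sort, tumor state and mice, and are a description. Dmkn was the gene most like Sbsn (r = 0.97), followed by Duoxa1 (0.97), Galnt16 (0.96), Islr2 (0.96) and Duox1 (0.96). Sbsn was the gene most like Dmkn, followed by Bmp6 (0.96), Colec10 (0.95), Ugp2 (0.95) and Duoxa1 (0.94). Duox1 and Duoxa1 encode a hydrogen peroxide-producing oxidase and its maturation factor, and averaged 118 and 84.9 CPM in CD26+ and 4.40 and 5.40 CPM in CD26- libraries. Dpp4 ranked 20 for Sbsn (r = 0.93) and 21 for Dmkn (0.92), and Krtdap ranked 35 and 24. Krt5 and Krt14 had r of -0.30 and -0.31 with Sbsn.

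Within the 21 CD26+ libraries, where the sort no longer separates the values, Dmkn was still first for Sbsn and Sbsn for Dmkn (r = 0.95). Next to Sbsn came Lgi3 (0.94), Bmp1 (0.92), Htra3 (0.91) and Phf24 (0.90), and next to Dmkn came Slit1 (0.94), Ccn3 (0.94), Sulf2 (0.93) and Gm7361 (0.93). Krtdap left the pair in these libraries, with r = 0.21 to Sbsn and 0.15 to Dmkn. Dpp4 had r = 0.21 with Sbsn and 0.02 with Dmkn, and Krt14 had -0.003 and -0.09. These 21 libraries still hold NFs and CAFs, between which Sbsn and Dmkn differed and Krtdap did not pass the test.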

How the data were processed

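Gene expression was measured in 44 stranded mRNA libraries (TruSeq) of sorted mouse fibroblasts. The authors deposited raw read counts per gene, without normalization. Their processing notes name HISAT2 2.2.1 and GRCm38, while the counter and the annotation are not given in the sources used here. The extraction protocol names 2 sequencing platforms without assigning libraries to them, so that no batch could be tested. Every column was matched to a sample, and 1 unnamed line of the table held 0 counts. Of 55486 gene identifiers, 55140 were in GENCODE M21 and 54783 had its coordinates. Promoter windows (RefSeq, GRCm38.p6) were found for 3 of 3 members.

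The members and lists were chosen with earlier results of these data known. Counts were summed per mouse and CD26 class (6 groups) or kept as libraries for En1 comparisons (12 groups). Low-count genes were removed with filterByExpr, which kept all 3 members. It kept Krtdap only through the CD26+ class, which limits every test of Krtdap within the CD26- class. Libraries were normalized with TMM. Contrasts were tested with edgeR 4.0.16 (glmQLFit, glmQLFTest, R 4.3.3), and FDRs were adjusted by Benjamini-Hochberg across every gene tested. WB1P and WB1P-Myc had equal weight in a CAF mean. A gene was called at an FDR under 0.05. The 95% intervals are the estimate ± 1.96 SE, and folds are 2 to the power of the log2 value. Relations across mice were tested in scipy 1.17.1 with 2-sided permutations of pairings, exact for 9 mice and 100000 for 10 mice. Named genes were the members, the keratins, Dpp4 and En1, 5 coding neighbours on either side, list genes that were called or most abundant, and the 5 genes most like Sbsn and Dmkn. En1+ and other libraries of one mouse form pairs by their labels, and when group means were subtracted, CD26+ and CD26- sums of a mouse correlated across genes (r 0.237 to 0.668, 12 pairs). Among 63 pairs of libraries of a group, none agreed within sampling noise. Alternatives were DESeq2 1.42.0 (its size factors alone, or its Wald test), no filter, only the groups compared, mouse as a block, single libraries, no mice marked 8x8, each mouse left out, and a pseudocount of 2 for relations. The scripts were tested on simulated counts. A group at 3 counts or fewer was treated as at the floor, and precision from depth covers counting error only. One gene of the basal and myoepithelial list is not reported here.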

Additional observations from a re-analysis of the deposited data

Results flagged for a closer look

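Values of single mice that stood far from the rest of their group were sought in 30 groups of 4 to 10 mice (the members, Krt5 and Krt14 in each tumor genotype and in all CAFs). Chance gives such a value in about 1 of 20 groups, and 9 were found, some of them the same mouse in nested groups.

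For the members, WB1P mouse 14 had the highest Sbsn in CD26+ fibroblasts of WB1P tumors (133 CPM, the nearest of the other 3 mice 115 CPM), which leaves the group within a narrow range. WB1P-Myc mouse 23, marked 8x8, had the lowest Sbsn of its CD26- group (3.23 CPM, the next 6.55 CPM). The same mouse had the highest Krt5, at 12.8 CPM in CD26- (the next 0.0985 CPM) and 2.79 CPM in CD26+ fibroblasts (0.125 CPM in its group and 1.09 CPM among all CAFs), while its Dmkn was 3.19 and 61.0 CPM. WB1P-Myc mouse 95 had the highest Krtdap of the CD26- class (0.643 CPM, from 8 counts), both in its group and among all CAFs. Krt5 was also high in CD26- fibroblasts of WB1P mouse 10 (7.20 CPM, the next 1.42 CPM), which has no CD26+ library. Krt14 was highest among CD26+ CAFs in WB1P mouse 35 (15.2 CPM, the next 4.52 CPM), whose Sbsn (115 CPM) and Dmkn (95.6 CPM) lay near the medians of the class.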

How the results depend on the processing

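The rise of Sbsn and Dmkn in CAFs against NFs kept its direction and its call in both CD26 classes under all alternatives run. Log2 values ran from 1.17 to 1.79 (Sbsn, CD26+; FDR up to 0.0109), 1.56 to 1.92 (Sbsn, CD26-; up to 0.00678), 2.24 to 3.12 (Dmkn, CD26+; up to 0.00819) and 2.83 to 3.34 (Dmkn, CD26-; up to 0.00883). Krtdap in CD26- CAFs against NFs passed with DESeq2's Wald test (3.38) and without the mice marked 8x8 (3.12). The filter kept Krtdap only through the CD26+ class, so that these passes are no support for a change. In CD26+ CAFs against NFs it turned to 0.17 without the mice marked 8x8 and ran from -0.42 to 0.39 with single mice left out. As a description, the log2 difference of Krtdap between the CD26 classes of NFs ran from 8.32 to 9.87 with single mice left out, since the CD26- class held 1 count. Differences that did not pass also changed sign. Sbsn in double+ against CD26+ CAFs was -0.11 without the mice marked 8x8. WB1P-Myc against WB1P in CD26- CAFs gave -0.10 for Sbsn in the En1-negative sort, 0.0004 for Dmkn with DESeq2's Wald test and 0.0197 with only the groups compared, and -0.87 for Krtdap in the En1-positive sort. With single mice left out these ran from -0.14 to 0.22 (Sbsn), -0.49 to 0.31 (Dmkn) and -0.89 to 0.51 (Krtdap), and from -0.0209 to 0.26 (Sbsn) and -2.18 to 0 (Krtdap) in the En1 comparisons of NFs. With the replicate block, Krt14 was called lower in CD26+ CAFs (-1.88), and no other call on the members or keratins changed. Without the mice marked 8x8, r over CD26+ CAF mice was -0.07 (Sbsn and Krt14), 0.24 (Sbsn and Krt5) and -0.59 (Dmkn and Krt14), and r of Sbsn and Dmkn over CD26- CAF mice was 0.16. The relation of Dmkn and Krt14 over CD26- CAF mice then had r = 0.70 (exact permutation p = 0.0599). Counts of called genes moved by over 1.5 times in small comparisons. Between the CD26 classes of NFs 692 genes were called, 1916 with the block, 202 with only the groups compared, 175 without control mouse 44/46 and 230 without 49/52. Between WB1P-Myc and WB1P CD26- CAFs it was 85, against 411 with DESeq2's Wald test, 54 without a filter, 6 with only the groups compared, 10 in the En1-negative sort, 50 without the mice marked 8x8 and 9 to 243 with single mice left out. The En1 comparisons had 0 to 3 calls, up to 8 with DESeq2's Wald test and up to 25 with the block. The causes of these changes were not tested. Depth limits Krtdap and, in CD26- NFs, Dmkn, which rest on few counts.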
